A study of Mus musculus with 5 samples.

Results

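Plau, Plat, Plaur, Serpine2 and Serpinf1 were examined as a group of 5 genes, among 25414 genes measured by RNA-seq in mouse neural stem cells (NSCs) and STO cells. They were taken by name, with earlier results of these data known, as the genes of the plasminogen activators, the activator receptor and related serpins. Each was measured by 1 RefSeq transcript. NSCs and STO cells differed in which of these genes they expressed most. NSCs held high Plat and Serpine2 mRNA and little Plau, Plaur or Serpinf1, whereas STO cells held all 5, with Serpinf1 the most abundant and Plat 11.1-fold lower than in NSCs.

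Plasminogen is a zymogen that is cut to the protease plasmin by either of a pair of activators. The urokinase-type activator, encoded by Plau, acts largely at the cell surface, where it is held by the GPI-anchored receptor encoded by Plaur, while the tissue-type activator, encoded by Plat, is best known for the lysis of fibrin and is also made in the nervous system. Serpins are a protein family that includes suicide inhibitors of proteases: protease nexin-1, encoded by Serpine2, inhibits thrombin and both activators and is bound by heparin, and it is abundant in glial cells. Pigment epithelium-derived factor, encoded by Serpinf1, has the serpin fold but does not inhibit proteases and is known as a secreted factor that restrains vessel growth.

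The NSCs were primary cells isolated from embryonic mouse cortex, kept for 5-8 passages as monocultures on poly-l-ornithine and laminin in neural basal medium with EGF and bFGF at 20 ng/ml, heparin at 20 ng/ml and B27, and were sequenced in 2 replicates. The STO cells were SIM embryonic fibroblasts, a cell line, kept for over 30 passages in DMEM with 10% fetal bovine serum, and were sequenced in 3 replicates. Both are labelled C57BL/6, but the paper describes STO cells as a SIM mouse line resistant to thioguanine and ouabain, so a shared strain is uncertain. None of the samples carried a knockout or a treatment. The labels do not say whether the replicates of a cell type came from separate cultures. A p-value therefore measures only the spread between these samples, which may be technical. Cell type, the origin and drug resistance of the line, passage, medium, serum and heparin differ together between the groups and cannot be told apart.

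Values are FPKM, in which fragments are divided by transcript length and by depth, so that levels can be compared between genes. The files hold no read counts, but the confidence interval beside each value implies a number of fragments when its distance to the upper bound is read as 2 standard deviations of a Poisson count, and these add up to between 15223341 fragments in STO replicate 1 and 22271895 in NSC replicate 2. They cover counting error only. Replicates of a cell type had a Pearson's r of 0.994 to 0.995 across 11712 genes, against 0.578 to 0.585 between cell types, so no library stood apart from its group.

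The markers of both labels were in place. The 4 NSC markers (Nes, Sox2, Pax6 and Olig2) were lower in STO cells, where their FPKM values summed to between 0.0380 and 0.0724, against 943 to 989 in NSCs. All 5 fibroblast markers (Col1a1, Col1a2, Col3a1, Pdgfrb and Thy1) were higher in STO cells, with sums of 974 to 1050 FPKM against 0.961 to 1.32 in NSCs. NSCs also held markers of differentiated neural cells: the 4 astrocyte markers summed to 70.4 to 71.4 FPKM, with Gfap at 16.4 ± 0.718 (SD, n = 2), and the 4 oligodendrocyte markers to 120 to 122 FPKM, with Mbp at 85.8 ± 3.46 (SD, n = 2). In STO cells these sums did not exceed 0.432 and 1.14 FPKM. Aldh1l1 made up most of the astrocyte sum in NSCs, at 46.4 ± 0.859 (SD, n = 2) FPKM, and Mog did not reach 1 FPKM. The paper used Gfap as a negative control in the RT-PCR of its NSCs. The 4 neuron markers, of which Rbfox3 did not reach 1 FPKM, summed to 113 to 114 FPKM in NSCs and 12.3 to 12.8 in STO cells. Map2 made up most of the NSC sum, at 101 ± 1.12 (SD, n = 2) FPKM. Tubb3 values overlapped between the cell types, at 8.69 ± 0.785 (SD, n = 2) FPKM in NSCs and 8.30 ± 0.402 (SD, n = 3) in STO cells. The endothelial and the macrophage and microglia markers summed to at most 0.576 FPKM in any sample. The part of such cells in the results below was not tested.

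The genes were spread over 5 chromosomes, and none overlapped another gene of the files. In mm9, Plau lay on chr14:21655884-21662610 (plus strand, 11 exons, 1299 coding bases) and Plat on chr8:23868194-23893320 (plus strand, 14 exons, 1677 coding bases). Plaur lay on chr7:25247502-25260987 (plus strand, 7 exons, 981 coding bases). Serpine2 was the longest, on chr1:79790896-79855240 (minus strand, 9 exons, 1191 coding bases), and Serpinf1 lay on chr11:75223531-75236125 (minus strand, 8 exons, 1251 coding bases). Exons and coding bases are those of the GENCODE M1 transcript with the longest coding sequence, and FPKM counts fragments over whole transcripts, untranslated regions included.

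A table of RefSeq promoters matched 3 of the 5 genes, and not Plau or Plat. The 250 bases before the annotated start are shown for these 3 because the genes moved in different directions and their starts differ in base composition. Capitals mark matches on either strand to any of 4 motifs. The AP-1 motif, which dimers of FOS and JUN proteins bind, was searched as TGANTCA. The GC box, which SP1 and related zinc finger proteins bind, was searched as GGGCGG. The TATA box, which positions transcription initiation at some promoters, was searched as TATAAA. The E-box, which several basic helix-loop-helix proteins bind, was searched as CACGTG. Coordinates are those of GRCm38.p6, and each sequence is written 5′ to 3′ on the strand of its gene:
Serpine2 (chr1:79858666-79858915, minus strand): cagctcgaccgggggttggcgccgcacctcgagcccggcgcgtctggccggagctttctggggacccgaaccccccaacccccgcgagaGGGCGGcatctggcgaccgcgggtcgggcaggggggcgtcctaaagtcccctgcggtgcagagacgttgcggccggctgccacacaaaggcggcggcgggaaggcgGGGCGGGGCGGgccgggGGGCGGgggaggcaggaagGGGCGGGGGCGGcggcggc
Plaur (chr7:24462233-24462482, plus strand): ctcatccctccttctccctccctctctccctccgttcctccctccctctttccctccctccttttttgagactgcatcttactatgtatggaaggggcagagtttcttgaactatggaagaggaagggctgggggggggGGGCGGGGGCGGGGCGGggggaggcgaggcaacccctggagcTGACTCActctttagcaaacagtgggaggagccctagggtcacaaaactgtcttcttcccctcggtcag
Serpinf1 (chr11:75422624-75422873, minus strand): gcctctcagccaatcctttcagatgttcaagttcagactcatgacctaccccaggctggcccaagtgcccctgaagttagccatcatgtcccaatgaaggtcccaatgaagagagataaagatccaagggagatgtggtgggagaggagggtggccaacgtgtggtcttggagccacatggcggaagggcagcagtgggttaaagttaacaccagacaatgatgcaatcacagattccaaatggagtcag

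The Serpine2 window was 78.8% G and C, above 98.3% of the 32851 promoter windows of this length, and held 34 CpG and 6 GC boxes, some of which overlap by 1 base. The Plaur window was 59.6% G and C, with 6 CpG, 3 GC boxes, of which a pair overlap by 1 base, and the only AP-1 motif of the 3 windows, which began at position -69 from the start. The Serpinf1 window was 51.6% G and C with 2 CpG and held none of the 4 motifs. Among all windows a GC box was found in 32.7%, an AP-1 motif in 6.75%, a TATA box in 12.4% and an E-box in 6.02%. These matches describe letters in a window and do not show that a factor binds there.

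Plat was the more abundant activator mRNA in NSCs and Plau in STO cells, where Plau was only 1.40-fold above Plat. Plat, the tissue-type activator, was at 180 and 188 FPKM in NSC replicates 1 and 2. In STO replicates 1, 2 and 3 it was at 16.1, 16.8 and 16.7 FPKM. Both NSC values lay far above every STO value, and Plat ranked 343rd and 334th of 25414 genes in the NSC replicates but between 4733rd and 4946th in the STO replicates. The means were 184 ± 5.41 (SD, n = 2) and 16.5 ± 0.371 (SD, n = 3) FPKM, which is 11.1-fold lower in STO cells, with pairs of samples giving 10.7-fold to 11.6-fold. On the log2(FPKM + 1) scale, which understates changes of low values, the difference was -3.40 with an SE of 0.051 and an adjusted p of 1.55e-08 (limma over 12292 genes, Benjamini-Hochberg). In bulk samples such as these, fewer cells of a type and less RNA per cell cannot be told apart.

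Plau, the urokinase-type activator, moved the other way. It was at 0.936 and 0.979 FPKM in the NSC replicates, with deposited intervals of 0.708 to 1.17 and 0.756 to 1.20. In the STO replicates it was at 23.4, 22.6 and 23.4 FPKM. The groups did not overlap, and the NSC values rested on about 67 and 78 fragments against 1235 to 1885 in STO cells. The mean rose from 0.958 ± 0.0299 (SD, n = 2) to 23.1 ± 0.466 (SD, n = 3) FPKM, or 24.2-fold. The log2 difference was 3.62 with an SE of 0.051 (limma, adjusted p = 1.31e-08). The spread of the NSC replicates, 3.12% of their mean, was below the 11.8% that counting alone gives, so their SD understates the error.

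Plaur, the receptor that holds the urokinase-type activator at the cell surface, rose in the same direction as Plau. The NSC replicates had 1.22 and 1.69 FPKM, with intervals of 0.896 to 1.55 and 1.33 to 2.06 that overlap. The STO replicates had 25.2, 23.4 and 25.4 FPKM, all far above both NSC values. The change was 16.9-fold, from 1.46 ± 0.333 (SD, n = 2) to 24.7 ± 1.07 (SD, n = 3) FPKM, and pairs of samples gave from 13.8-fold to 20.8-fold. The log2 difference was 3.39 with an SE of 0.093 (limma, adjusted p = 2.12e-07). The spread of the NSC replicates, 22.8% of their mean, was larger than the 12.1% that counting alone gives. An SD from 2 replicates is itself uncertain, and for Plau it fell below counting, so this does not show excess spread.

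Serpine2, the gene of the activator and thrombin inhibitor protease nexin-1, was high in both cell types and highest in NSCs. It was at 650 and 639 FPKM in the NSC replicates, which placed it 99th and 101st of all genes. In the STO replicates it was at 91.9, 89.8 and 93.9 FPKM, between 715th and 722nd. The groups did not overlap. The mean was 645 ± 7.40 (SD, n = 2) in NSCs and 91.9 ± 2.06 (SD, n = 3) in STO cells, 7.02-fold lower in the latter, with a log2 difference of -2.80 and an SE of 0.054 (limma, adjusted p = 4.50e-08).

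Serpinf1, the gene of the non-inhibitory pigment epithelium-derived factor, differed most of the 5. It was at 0.277 and 0.427 FPKM in the NSC replicates, values that rested on about 13 and 22 fragments and had intervals of 0.123 to 0.430 and 0.245 to 0.610. In the STO replicates it was at 208, 205 and 214 FPKM, from 6827, 7640 and 10671 fragments. There it ranked between 265th and 269th of all genes, and the groups did not overlap. The ratio of the means was 594, but pairs of samples gave from 479 to 775, since the NSC values are low. The log2 difference was 7.28 with an SE of 0.065 (limma, adjusted p = 5.07e-09).

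**Figure D1:**
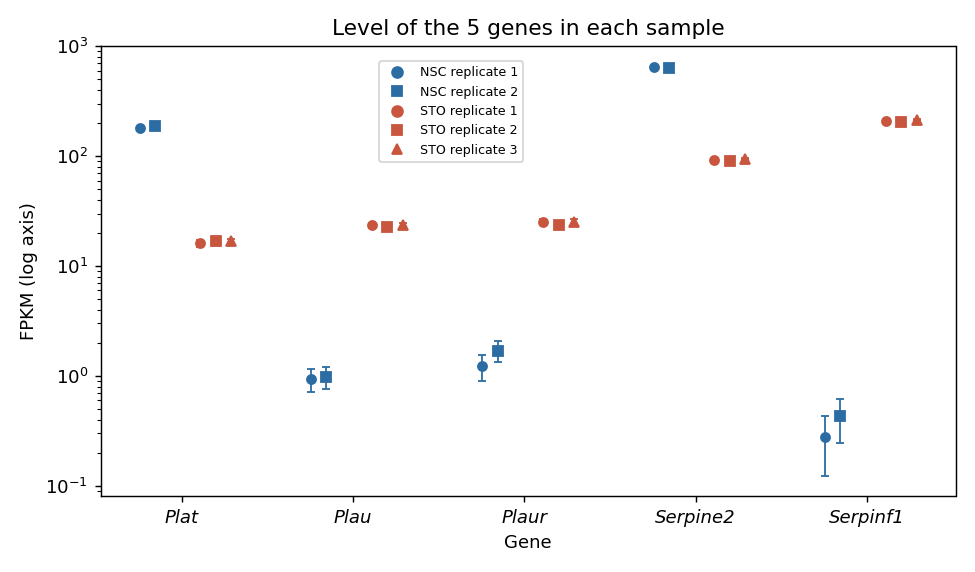
FPKM of the 5 genes on a log axis in the 2 NSC replicates (blue) and the 3 STO replicates (red); bars are the deposited confidence intervals. Plat and Serpine2 sit higher in NSCs, and Plau, Plaur and Serpinf1 sit higher in STO cells, with no overlap between the groups for any of them.

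All 5 genes passed the threshold of 0.05, but so did 85.6% of the 12292 genes tested (41.9% higher and 43.7% lower in STO cells), so that their call alone does not set them apart. Groups that do not overlap were as common, in 89.9% of genes tested (43.9% higher and 46% lower in STO cells). The sizes were larger than usual: the median absolute difference was 3.40 over the 5 genes and 0.74 over all genes tested. The 5 genes were chosen with earlier results of these data known, so their sizes and ranks here are a description and not a test. Plau and Serpinf1 had NSC means under 1 FPKM. They passed the filter only through STO cells, which fixed their direction. An absolute difference of at least 1 with an adjusted p under 0.05 was seen in all 5 genes and in 38.4% of the genes tested. Ranked by absolute difference, Serpine2 exceeded 90.2% of the genes tested, Plaur 93.1%, Plat 93.1%, Plau 94.2% and Serpinf1 99.7%. Serpinf1 had the 21st largest rise in STO cells.

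**Figure D2:**
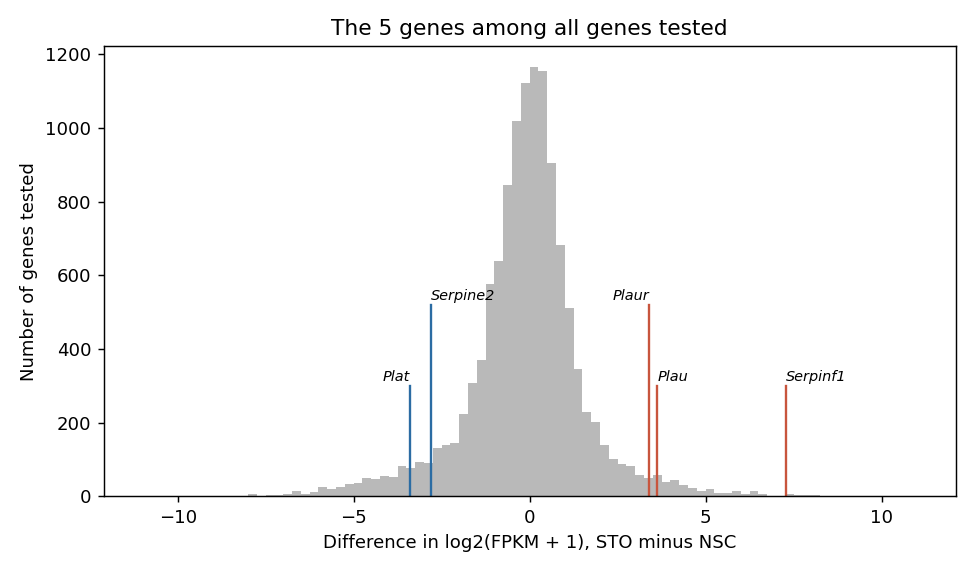
Number of genes (y axis) by their difference in log2(FPKM + 1), STO minus NSC (x axis), for the 12292 genes tested; lines mark the 5 genes. Plat (-3.40) and Serpine2 (-2.80) lie in the lower tail, Plaur (3.39), Plau (3.62) and Serpinf1 (7.28) in the upper one.

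The order of the 5 levels was different in the cell types. In NSCs it ran Serpine2, Plat, Plaur, Plau and Serpinf1, with Plat 126-fold above Plaur. Plaur was above Plau in both NSC replicates, by 1.52-fold in the means, although the intervals of NSC replicate 1 overlap. In STO cells the order was Serpinf1, Serpine2, Plaur, Plau and Plat. Plaur and Plau were next to each other there as well, at 24.7 and 23.1 FPKM, and the lowest Plaur value exceeded the highest Plau value by 0.0447 FPKM, less than the spread between replicates, although Plaur was above Plau in 3 of 3 samples.

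Ratios within a sample do not depend on how the samples were scaled; these were chosen after the values were seen and are given as a description. Plat exceeded Plau 192-fold in both NSC replicates. In the STO replicates the ratio was 0.689, 0.742 and 0.715, so Plau was the more abundant activator mRNA in every STO sample. Plau made up 0.518% of the summed activator mRNA in NSCs and 58.3% ± 0.910 (SD, n = 3) in STO cells. With 2 and 3 samples, a two-sided exact permutation test of such a ratio cannot go below p = 0.2. The summed level of Plat and Plau was 185 ± 5.44 (SD, n = 2) FPKM in NSCs and 39.7 ± 0.416 (SD, n = 3) in STO cells, a 4.66-fold difference.

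The level of Plaur relative to Plau changed little by comparison. It was 1.31 and 1.73 in the NSC replicates and 1.08, 1.04 and 1.09 in the STO replicates. Serpine2 relative to the sum of Plat and Plau was 3.59 and 3.39 in NSCs and 2.33, 2.28 and 2.34 in STO cells. The difference in this last ratio was 1.51-fold, while its numerator differed 7.02-fold and its denominator 4.66-fold between the cell types.

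**Figure D3:**
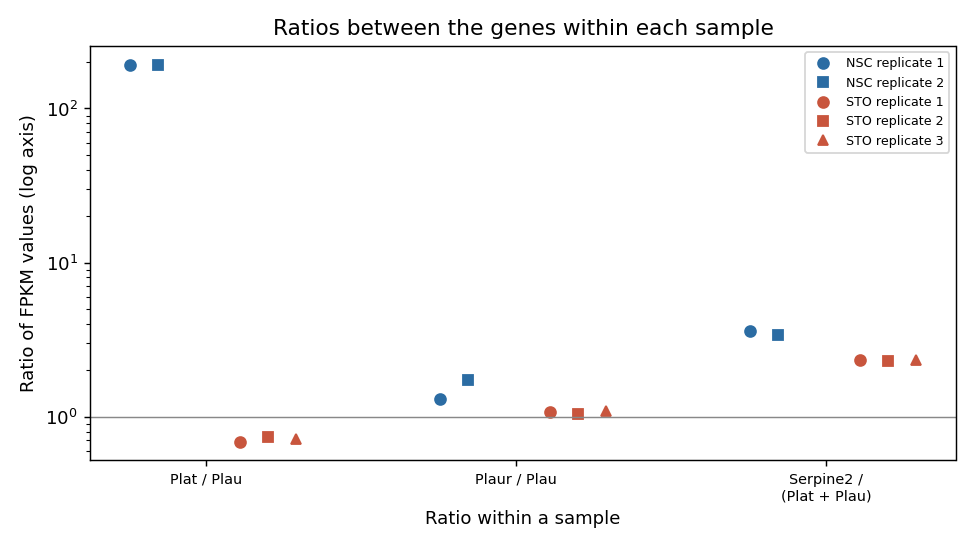
Ratios of FPKM values within each of the 5 samples on a log axis; blue points are NSC replicates, red points STO replicates, and the line marks equal levels. The ratio of Plat to Plau falls from 192 to below 1, while that of Serpine2 to the summed activators lies between 2.28 and 3.59 in every sample.

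Other genes that act on plasminogen or its activators were mostly at or near 0. Of a list of 8, 2 were tested, and both were lower in STO cells, as were 43.7% of all genes tested. A2m, the gene of the broad protease trap alpha-2-macroglobulin, was at 32.1 and 27.8 FPKM in NSCs and was listed at 0 in all 3 STO replicates. A2m passed the filter only through NSCs, which fixed its direction. Serpini1, the gene of neuroserpin, an inhibitor of the tissue-type activator, fell from 4.89 ± 0.193 (SD, n = 2) to 1.04 ± 0.126 (SD, n = 3) FPKM (limma, adjusted p = 1.95e-06).

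The substrate of the activators was hardly seen as mRNA in either cell type. Plg, which encodes plasminogen and is made mainly in liver, was at 0.0115 and 0.0316 FPKM in NSCs and was listed at 0 in STO cells. Serpinb2, the gene of plasminogen activator inhibitor-2, was listed at 0 in NSCs and at 0.337, 0.389 and 0.428 FPKM in STO cells. Serpinf2, the gene of the plasmin inhibitor alpha-2-antiplasmin, did not exceed 0.0404 FPKM and Serpine3 did not exceed 0.0415 FPKM in any sample, and Serpina5 and Cpb2 were listed at 0 throughout.

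Of 15 genes for receptors, binding partners and clearance proteins, 11 were tested, with 6 higher and 5 lower in STO cells, close to the split over all genes tested (41.9% higher and 43.7% lower). Their median log2 difference was 0.51, against -0.02 over all genes tested. Anxa2 and S100a10, whose products form a complex that binds plasminogen and the tissue-type activator, were among those that rose. Anxa2 went from 42.5 ± 3.39 (SD, n = 2) to 815 ± 27.2 (SD, n = 3) FPKM, a log2 difference of 4.23 (limma, adjusted p = 2.54e-08). S100a10 went from 98.0 ± 5.07 (SD, n = 2) to 524 ± 35.3 (SD, n = 3) FPKM, a log2 difference of 2.41 (limma, adjusted p = 4.82e-07). Igf2r, a receptor for mannose 6-phosphate and IGF2 that also binds the urokinase receptor, rose by a log2 difference of 3.25, and Mrc2, an endocytic collagen receptor that associates with the urokinase receptor, by 3.02. Lrp1, which clears activator and serpin complexes, was 33.8 ± 2.29 (SD, n = 2) FPKM in NSCs and 70.8 ± 5.91 (SD, n = 3) in STO cells.

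Lrp8 was also higher in STO cells, but only by a log2 difference of 0.51. The 5 receptor and binding genes that were lower moved less than the genes that rose, Lrp8 excepted. The log2 differences were -0.87 for Eno1, a glycolytic enzyme that also binds plasminogen, -0.67 for Plgrkt, a plasminogen receptor, -0.53 for Itgav and -0.37 for Vldlr. Eno1 has near-identical pseudogenes, so its level is uncertain. The call of Itgb1 (-0.20, limma adjusted p = 0.019) was lost when the values were scaled to a common sum (-0.03, adjusted p = 0.64) or quantile normalized (-0.06, adjusted p = 0.33). Itgb3, Lrp2, Vtn and Itgam had means under 1 FPKM in both cell types. Vtn encodes vitronectin, the matrix protein bound by the urokinase receptor, and was listed at 0 in 4 of the 5 samples.

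Among 17 genes for substrates and coagulation partners, 6 were tested, with 4 higher and 2 lower in STO cells, where 85.6% of all genes tested were called (41.9% higher and 43.7% lower), so the count does not set the list apart. Hgf, the gene of hepatocyte growth factor, whose precursor is cut by the urokinase-type activator among other proteases, was at 0.0762 and 0.0930 FPKM in NSCs and at 31.6, 30.7 and 31.6 in STO cells. Its log2 difference of 4.90 ± 0.050 (SE; limma, adjusted p = 5.75e-09) was the largest of this list. Pdgfc, a growth factor that the tissue-type activator can cut, rose from 5.36 ± 0.176 (SD, n = 2) to 19.8 ± 0.921 (SD, n = 3) FPKM, and Bdnf, whose precursor plasmin can cut, from 1.00 ± 0.173 (SD, n = 2) to 7.58 ± 0.264 (SD, n = 3) FPKM. The rise of F2r, the thrombin receptor, was small (0.21, limma adjusted p = 0.012). F3, the gene of tissue factor, fell by 0.42 on the log2 scale. Tfpi, its inhibitor, was lower by -0.81 with FPKM as deposited, but not past the threshold after quantile normalization (-0.10, limma adjusted p = 0.64). Hgf and Bdnf (NSC mean 0.9996) passed the filter only through STO cells and Tfpi only through NSCs, which fixed their direction. The remaining 11 genes had means under 1 FPKM, and the fibrinogen genes Fga, Fgb and Fgg were listed at 0 in every sample.

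**Figure D4:**
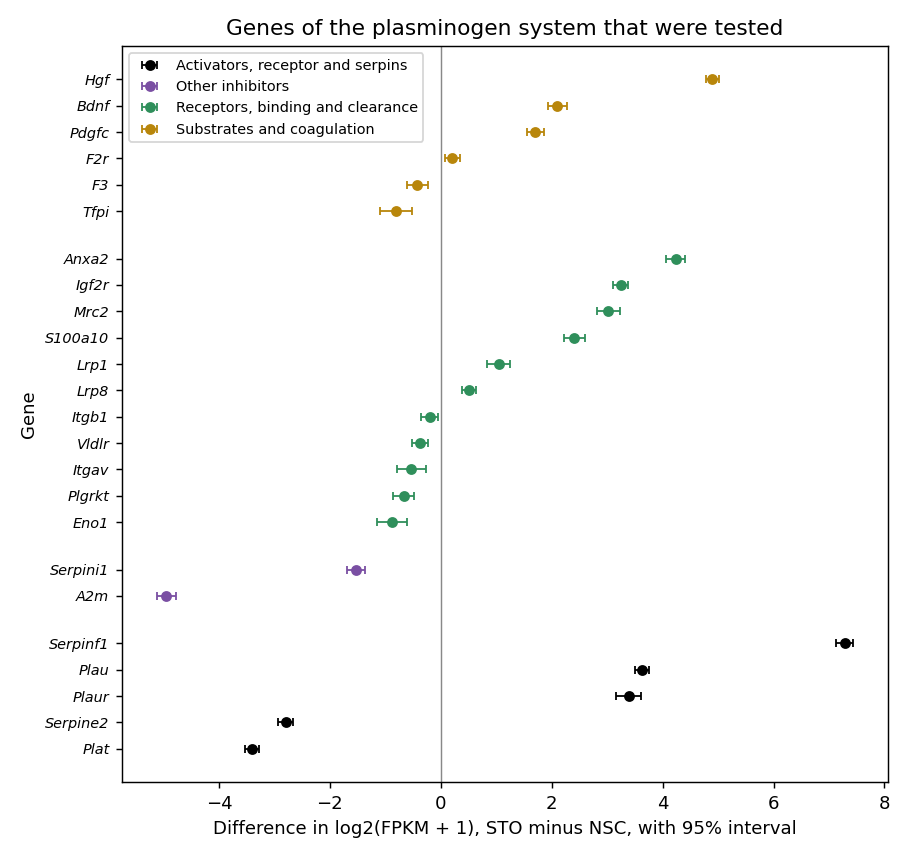
Difference in log2(FPKM + 1), STO minus NSC, with its 95% interval from limma, for the 5 genes (black) and the tested genes of 3 lists: other inhibitors (purple), receptors, binding and clearance (green), and substrates and coagulation (gold). Serpinf1 has the largest rise (7.28) and A2m the largest fall (-4.95).

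Serpins other than the 2 above were mostly low or at 0. Of 61 other serpin genes examined, 12 were tested, 11 of them higher and 1, Serpini1, lower in STO cells, and 27 were listed at 0 in every sample. Over all genes tested, 41.9% were higher and 43.7% lower. The tested serpins had a median log2 difference of 2.22, against -0.02 over all genes tested. Several that rose, such as Serpina3g, Serpina3h and Serping1, had NSC means under 1 FPKM. They were tested only because they reached 1 FPKM in STO cells, which fixed their direction. The split and the median therefore do not show a trend among serpins. Serpinh1, the gene of the collagen chaperone HSP47, was the highest of these in both cell types, at 33.0 ± 4.13 (SD, n = 2) FPKM in NSCs and 340 ± 11.4 (SD, n = 3) in STO cells. It was followed in NSCs by Serpini1 and by Serpina3n at 3.61 FPKM, and in STO cells by Serpinb6a at 65.7 FPKM and Serpina3g at 44.5 FPKM. Serpine2, at 645 FPKM, was therefore the most abundant serpin mRNA in NSCs, while in STO cells Serpinh1 and Serpinf1 were above it. Serpina3 and Serpinb genes belong to families of near-identical copies, and Serpinb6a was listed at 3.07 FPKM in NSC replicate 1 and at 0 in NSC replicate 2, so their levels are uncertain.

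The nearest genes on either side of the 5 loci did not share a common direction with them. Ap3m2, 4505 bases from Plat, was lower in STO cells as Plat was (log2 difference -2.60, limma adjusted p = 5.05e-08), and Vcl, the gene of vinculin, 86044 bases from Plau, was higher as Plau was (2.18, limma adjusted p = 7.02e-07). Cadm4, 6054 bases from Plaur, moved against it, from 183 ± 40.5 (SD, n = 2) to 5.89 ± 0.635 (SD, n = 3) FPKM. Serpinf2 lies 9112 bases from Serpinf1 and did not exceed 0.0404 FPKM in the STO samples, where Serpinf1 was between 205 and 214 FPKM. On the other side of Serpinf1, Smyd4 was slightly lower in STO cells (-0.48, limma adjusted p = 0.0067). Next to Serpine2, Mrpl44 was lower as well (-0.42, limma adjusted p = 0.0054), and Ikbkb next to Plat did not pass the threshold (0.07, limma adjusted p = 0.33). Gm30108, Irgc1 and Fam124b, the nearest genes on the other side of Plau, Plaur and Serpine2, had means under 1 FPKM in both cell types.

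The genes with the most similar values were found by the root mean square difference of log2(FPKM + 1) over the 5 samples, among 12291 other genes. With a pair of cell types this measure reflects little more than a level in each. For Plau they were Pcdh18 (0.043), Dse (0.069) and Phldb2 (0.071), and for Plaur Lrig3 (0.11), Prrx2 (0.17) and Sik1 (0.18). For Plat they were Lypla2 (0.098), Glul (0.11), the gene of glutamine synthetase, and Rasl11a (0.23). Serpine2 had the least close match, with Ccnd1 (0.32), the gene of cyclin D1, Tubb2a (0.39) and Fabp5 (0.43). Serpinf1 was closest to Cd34 (0.15) and to the chemokine genes Cxcl1 (0.17) and Cxcl12 (0.21).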

How the data were processed

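Total RNA of the 5 samples was made into stranded mRNA libraries and read as paired ends. By the paper's methods and the submitters' processing notes, the authors trimmed the reads, aligned them to mm9 with HISAT2 (given as version 4.8.2) and computed the deposited FPKM values and their confidence bounds with Cufflinks 2.2.1 on RefSeq, 1 file per sample. Whether strand was used in the quantification is not given in the sources used here. Read counts were not used.

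Of 40201 transcripts, 39951 were matched to symbols through a RefSeq table of GRCm38.p6, used for names and promoters only. FPKM was summed over transcripts that share a symbol and whose loci overlap. NSCs and STO cells were compared two-sided on log2(FPKM + 1) with limma 3.58.1 (R 4.3.3; lmFit and a trended eBayes) for 12292 genes whose mean reached 1 FPKM in either cell type. P-values were adjusted by Benjamini-Hochberg over these genes and called under 0.05. It was checked on simulated data. Other steps used Python 3.11.15 and pandas 2.3.3. Named genes were the 5 genes and 3 lists of plasminogen system genes with the members past the threshold of largest difference (up to 4 per direction) and those under 1 FPKM, the 3 most abundant other serpins of each cell type, the 3 most similar genes and the nearest genes. The genes and lists were chosen with earlier results of these data known. Lrp1, Lrp8 and Itgb1 were named in addition, after their values were seen. A result on 1 further gene of these lists and on 1 marker is not reported here.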

Additional observations from a re-analysis of the deposited data

How the results depend on the processing

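The differences of the 5 genes kept their direction and their side of the threshold in all 65 fits of 13 alternatives. Leaving out 1 sample at a time gave -3.43 to -3.37 for Plat, 3.61 to 3.64 for Plau, 3.25 to 3.53 for Plaur, -2.81 to -2.78 for Serpine2 and 7.20 to 7.36 for Serpinf1, with adjusted p-values of at most 0.000115 (limma). Where an NSC replicate was left out, the remaining one was assumed to vary like the STO replicates. The other alternatives (pseudocount of 0.1, no filter, a minimum of 5 FPKM, a common sum, quantile normalization, single transcripts, no trend, replicate block) gave -3.47 to -3.27 for Plat, 3.61 to 4.46 for Plau, 3.37 to 4.01 for Plaur, -2.81 to -2.47 for Serpine2 and 7.26 to 8.87 for Serpinf1; the highest values of Plau, Plaur and Serpinf1 are those with a pseudocount of 0.1, which adds less to their low NSC values. No filter, a minimum of 5 FPKM, single transcripts and no trend could not move the differences of these genes, only their p-values. The replicate block gave the same differences as leaving out STO replicate 3. Scaling to a common sum moved the median of all genes from -0.02 to 0.12. With the stricter rule of an absolute difference of 1 or more, the genes called higher in STO cells numbered 2103 (from 5153) and those called lower 2617 (from 5375).

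Replicate numbers 1 and 2 occur in both cell types, and nothing in the labels pairs them. Deviations of same-numbered samples from their cell type means had correlations of 0.0075 and 0.061. Those of samples with different numbers lay between -0.061 and 0.050. The deviations of the NSC replicates mirror each other, so these values cannot decide whether samples were paired. A fit with a replicate block called 4994 genes as higher and 5252 as lower, and in it the 5 genes had differences of -3.41 (Plat), 3.61 (Plau), 3.37 (Plaur), -2.81 (Serpine2) and 7.26 (Serpinf1). Depth limits the low NSC values, of which those of Serpinf1 rested on about 13 and 22 fragments.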
